A study of Mus musculus with 6 samples.

Results

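The heat shock proteins and chaperones described here are 10 genes, found by symbol among the 32285 genes of the deposited matrices: *Hspa1a*, *Hspa1b*, *Hspa5*, *Hspa8*, *Hsp90aa1*, *Hsp90ab1*, *Hspd1*, *Hspe1*, *Hsph1* and *Dnajb1*. They are a list of names, with no threshold on a measured value. They were measured by droplet single-cell RNA sequencing (10x Genomics Chromium GEM V3) in healthy host HSPCs, sorted from bone marrow as CD45.1+ Lin- cKit+ Sca1+ (LSK) cells. The hosts were female C57BL/6J mice carrying CD45.1, 8 to 12 weeks old and non-conditioned. PBS-injected mice gave PBS replicates 1, 2 and 3 and mice injected with 1000000 C1498 cells gave AML replicates 1, 2 and 3, with all mice sacrificed at day 21. C1498 is a murine acute myeloid leukemia line carrying CD45.2, so 1 cultured line stands for the disease and the CD45.1 gate selects host cells. The labels do not say whether a library was 1 mouse or a pool. The p-values below for AML against PBS therefore measure only the spread between libraries. Where cells of 1 library are compared with each other, they measure how far that difference varies between libraries.

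Chaperones bind unfolded or partly folded proteins and release them in cycles driven by ATP. HSP70 proteins take up short unfolded stretches, J-domain proteins such as DNAJB1 bring them their clients, and HSP110 proteins such as HSPH1 exchange their nucleotide. HSP90 proteins act later, on kinases and steroid receptors. Heat shock factor HSF1 drives the stress-inducible members, whereas HSC70 (*Hspa8*), HSP90 beta (*Hsp90ab1*), BiP in the endoplasmic reticulum (*Hspa5*) and the mitochondrial HSP60 and HSP10 pair (*Hspd1*, *Hspe1*) are made in unstressed cells.

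The regulatory sequence of 4 loci is shown because the expression results below turn on a pair of neighbours, on a chaperone gene of the endoplasmic reticulum, and on stress-inducible genes that were low or nearly silent. Sequences are from RefSeq promoter windows of GRCm38.p6, for the 250 bases before each start. Windows were found for 7 of the 10 members. Capitals mark heat shock element cores (GAANNTTC or TTCNNGAA, each its own reverse complement) or, in *Hspa5*, the endoplasmic reticulum stress element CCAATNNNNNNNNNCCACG.
Hspe1 (chr1:55088053-55088082, + strand): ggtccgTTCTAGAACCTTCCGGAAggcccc
Hspa5 (chr2:34772020-34772049, + strand): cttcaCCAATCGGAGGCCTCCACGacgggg
Hsph1 (chr5:149636351-149636380, - strand): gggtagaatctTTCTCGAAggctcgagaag
Hspa1a (chr17:34972157-34972406, - strand): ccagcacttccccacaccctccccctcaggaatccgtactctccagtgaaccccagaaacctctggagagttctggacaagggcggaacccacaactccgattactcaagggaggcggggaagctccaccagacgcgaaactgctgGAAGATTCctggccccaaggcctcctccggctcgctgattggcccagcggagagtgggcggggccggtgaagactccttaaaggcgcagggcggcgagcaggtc

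*Hspd1* and *Hspe1* lie head to head on chromosome 1, with RefSeq starts at 55087932 and 55088148 and 215 bases between them. The 18 capital bases between those starts hold 3 overlapping cores. *Hspd1* has a second RefSeq start at 55088243, whose window held no core, and from that start the capital stretch lies inside the gene. At least 1 core was present in 12.8% of the 32851 promoter windows. The *Hspa5* element was in 0.113% of them. The *Hspa1b* window differed from that of *Hspa1a* at 3 of 250 bases, written as C44T, T47C and T249G with the *Hspa1a* base first and positions counted from 1 at the 5′ end. Both windows listed for *Dnajb1* held no core. The bases right after their starts were found in no transcript of the annotation, unlike those of the other members. The start of 1 of them, 83608175, lies shortly before the annotated gene start of 83608193, so the miss does not set that window aside. The other start, 83608548, lies inside the gene. A match describes letters only. On GRCm38 with GENCODE vM21 the genes span chr1:55077835-55088243 (*Hspd1*), chr1:55088132-55091307 (*Hspe1*), chr2:34771970-34777547 (*Hspa5*), chr5:149614287-149636376 (*Hsph1*), chr8:83608193-83612653 (*Dnajb1*), chr9:40800984-40810087 (*Hspa8*), chr12:110690605-110702728 (*Hsp90aa1*) and chr17:45567775-45573271 (*Hsp90ab1*). *Hspa1b* (chr17:34956436-34959238) and *Hspa1a* (chr17:34969190-34972156) are neighbours on chromosome 17.

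The 6 libraries held 48510 barcodes. The authors' cell table kept 16822 of them: 6838, 934 and 4398 cells of PBS replicates 1, 2 and 3, 693 cells of AML replicate 1, 3959 of AML replicate 3 and 0 of AML replicate 2, so that tests compared 3 PBS with 2 AML libraries. Summed UMIs of these cells ranged from 1945659 in AML replicate 1 to 32123508 in PBS replicate 1. The sort markers *Kit* (77.8 to 104.8 CPM, counts per 1000000 UMIs scaled by trimmed means within each comparison, so that levels of 1 set of cells differ between comparisons and are set side by side only within one) and *Ly6a*, which encodes Sca1 (93.7 to 203 CPM), were present in all 5 libraries. AML replicate 1 stood apart. Its summed profile correlated at 0.916 to 0.942 with the other libraries, against 0.972 to 0.984 among them, and 52.4% of its cells were called G2M, against 18.3% to 24.1%. Barcodes were shared between libraries, and 97.4% of those of PBS replicate 2 also occurred in AML replicate 2, but at most 12 cells of the table were shared by any pair of libraries.

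The stress-inducible HSP70 genes were close to silent. *Hspa1a* had 5, 3 and 0 UMIs in the cells of PBS replicates 1, 2 and 3, and 4 and 3 UMIs in AML replicates 1 and 3. The count of 0 in PBS replicate 3 allows up to 0.132 CPM (3 counts, counting error only). *Hspa1b* had 13, 2 and 5 UMIs in PBS, against 7 in each AML library. Scaled to depth, AML replicate 1 was the high library for both: *Hspa1a* stood at 2.06 CPM (95% exact Poisson interval 0.560 to 5.26) and *Hspa1b* at 3.60 CPM (1.45 to 7.41). The other 4 libraries lay at or below 0.405 CPM for both genes. Neither gene passed the filter on low counts for the comparisons of all LSK cells, classes or phases, which leaves 8 of the 10 members tested there. Without that filter 8 of 10 members were called between cells called S and G1, where 7709 of 21591 genes were. *Hspa1a* or *Hspa1b* was among those 8, on the few UMIs given above. The transcripts of these 2 genes shared 1716 stretches of 50 bases, 62.3% of those in *Hspa1b*, but 0 within their last 600 bases.

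The question of the design was how the leukemic niche changes host HSPCs. None of the 8 tested members differed between AML and PBS over all LSK cells by edgeR's quasi-likelihood test with Benjamini-Hochberg adjustment at 0.05. The same test called 0.16% of 14364 genes. At an unadjusted p under 0.05 the count was 1 of 8 members, against 10.5% of all genes, and neither DESeq2 (0.64% of genes called) nor limma-voom (0.174%) called a member. The median log2 fold change of the 8 members was 0.35, and that of all genes tested was -0.031.

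The mitochondrial pair had the highest fitted differences of the 8 members. *Hspe1*, the HSP10 lid of the HSP60 folding chamber, stood at 491, 485 and 669 CPM in PBS replicates 1, 2 and 3, and at 1135 and 640 CPM in AML replicates 1 and 3. AML replicate 1 was far above the rest, whereas AML replicate 3 lay inside the PBS range. In CPM without the trimmed-mean scaling *Hspe1* did not overlap, at 527, 477 and 620 CPM in PBS and 1130 and 656 CPM in AML. The log2 fold change was 0.69 ± 0.31 (SE, 3 against 2 libraries, edgeR adjusted p = 0.452). *Hspd1*, the HSP60 chamber itself, stood at 546, 309 and 358 CPM in PBS, and at 741 and 483 CPM in AML, where again 1 AML library was above and 1 within the PBS range. Its log2 fold change was 0.60 ± 0.31 (edgeR adjusted p = 0.511). Over the libraries left out, the log2 difference of *Hspe1* ran from 0.24 (without AML replicate 1) to 1.05 (without AML replicate 3), and that of *Hspd1* from 0.27 (without AML replicate 1) to 0.90 (without PBS replicate 1).

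Both cytosolic HSP90 genes overlapped between the groups. *Hsp90aa1*, the inducible alpha form, was tight in PBS at 204, 212 and 217 CPM, and stood at 328 and 212 CPM in AML. Its log2 difference was 0.35 ± 0.26, with 0.020 without AML replicate 1 and 0.64 without AML replicate 3. *Hsp90ab1* ranged from 2197 to 3476 CPM in PBS and from 2832 to 3327 CPM in AML (log2 fold change 0.11 ± 0.31).

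With trimmed-mean scaling *Hspa5* was the only tested member whose ranges did not overlap, a pattern shared by 32.0% of all genes tested, 14.6% with both AML libraries above. BiP transcripts stood at 105, 102 and 65.9 CPM in PBS and at 122 and 112 CPM in AML, with PBS replicate 3 well below the other libraries. The log2 fold change of 0.35 ± 0.25 did not pass (edgeR adjusted p = 0.618), and was 0.18 without PBS replicate 3. With each library weighted to the same mix of classes it was 0.17, and those of *Hspe1* and *Hspd1* were 0.49 and 0.45. The same PBS library was low for *Hspa8*, which stood at 1214, 1165 and 579 CPM in PBS and at 975 and 821 CPM in AML (-0.14 ± 0.33). *Dnajb1* stood at 76.4, 60.1 and 49.2 CPM in PBS and at 48.5 and 49.9 CPM in AML (-0.33 ± 0.24, and -0.12 without PBS replicate 1). *Hsph1* was detected at 6.85 to 12.96 CPM in PBS, 18.6 CPM in AML replicate 1 and 9.09 CPM in AML replicate 3 (0.38 ± 0.34), and without AML replicate 1 the value was -0.044. Sums over lists, here and below, are CPM without the trimmed-mean scaling. Of 8 MPP-3 markers 2 were called higher in AML, and their summed level was 800 to 1383 CPM in PBS and 1942 to 1969 CPM in AML. Of 10 HSC markers 0 were called, and their sums were 1366 to 1484 CPM in PBS and 860 and 1017 CPM in AML. Of 8 monocyte and macrophage markers 2 were called higher, with sums of 94.8 to 152 CPM in PBS and 117 to 143 CPM in AML. Of 7 tested plasma cell markers 1 was called lower, with sums of 8432 to 11743 CPM in PBS and 8300 to 11151 CPM in AML. Their part in the member values was not tested.

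**Figure D1:**
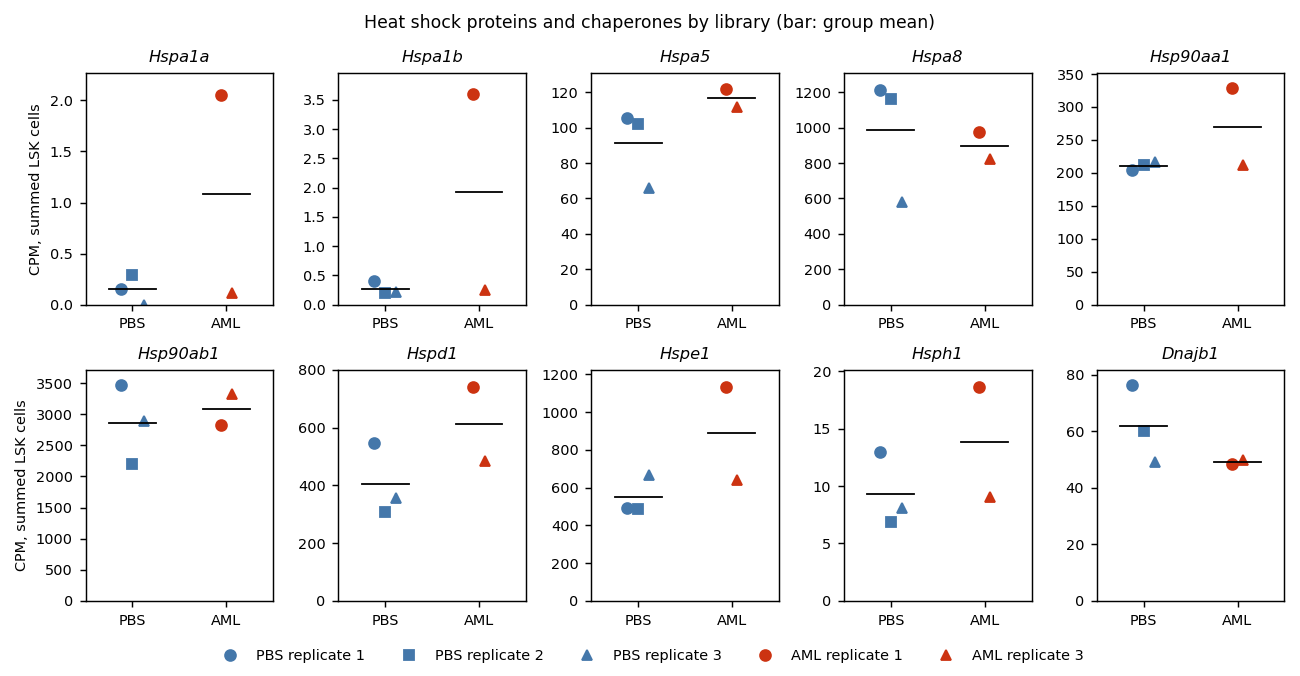
CPM of each of the 10 members (vertical axes, each from 0) in the summed LSK cells of 3 PBS and 2 AML libraries, with 1 point per library and a bar at the group mean. *Hspa1a* and *Hspa1b* are in unscaled CPM and reach 3.60 at most, *Hspa5* alone of the other 8 separates the groups on the trimmed-mean scale, and AML replicate 1 is the high AML point for *Hsp90aa1*, *Hspd1*, *Hspe1* and *Hsph1*.

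Other chaperones and stress genes gave the same count of 0. In all LSK cells 0 genes were called by edgeR among 14 tested HSP70 relatives and exchange factors, 23 J-domain proteins and 17 HSP90 co-chaperones. The same held for 20 endoplasmic reticulum chaperones and unfolded protein response genes, 11 mitochondrial chaperones and proteases, and 14 TRiC and prefoldin subunits. It also held for 4 small heat shock proteins, 5 genes of the heat shock factor list and 18 immediate early genes. The heat shock factor list holds *Hsbp1* and *Serpinh1* beside the factors. *Calr*, the calcium-binding chaperone calreticulin, stood at 101, 127 and 117 CPM in PBS and 299 and 132 CPM in AML (log2 fold change 0.90 ± 0.31, adjusted p = 0.327). *Fkbp5*, a co-chaperone of steroid receptor complexes, stood at 42.1, 33.9 and 34.4 CPM in PBS and 58.8 and 63.3 CPM in AML (0.73 ± 0.21, adjusted p = 0.253). *Zfp36*, an immediate early gene that promotes mRNA decay, stood at 79.8, 91.9 and 46.4 CPM in PBS and at 27.9 and 38.2 CPM in AML (-1.10 ± 0.30, adjusted p = 0.207). Immediate early genes respond to handling, and their summed level was 2956, 2126 and 1192 CPM in PBS and 974 and 1266 CPM in AML. The part of handling in any difference was not tested. The other genes taken by the naming rule had adjusted p-values of 0.316 to 0.908.

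The comparison was repeated within the classes of the authors' table, stem cells (HSC) and 3 kinds of multipotent progenitor (MPP-2, MPP-3, MPP-4), assigned by module scores of published signatures. Whether a signature holds a member was not checked. edgeR called 0 of 8 members in each class, where the share of genes called was 0.0399% (MPP-2), 0.0486% (MPP-3), 0.0325% (MPP-4) and 0.178% (HSC). At an unadjusted p under 0.05 only *Hspe1* in MPP-3 passed, where 7.39% of genes did, and the other classes had 0 members against 4.16% of genes (HSC), 7.56% (MPP-2) and 5.93% (MPP-4). DESeq2 also called 0 members in each class, and 0.0%, 0.0719%, 0.184% and 0.00813% of genes from HSC to MPP-4. In MPP-3, *Hspe1* stood at 502, 537 and 726 CPM in PBS and at 1214 and 748 CPM in AML, without overlap (log2 fold change 0.73 ± 0.34, edgeR adjusted p = 0.653). Over the libraries left out it ran from 0.36 (without AML replicate 1) to 1.04 (without AML replicate 3). In that class *Hsp90aa1* and *Hspd1* also lay above every PBS library in both AML libraries and *Dnajb1* below, so that 4 of 8 members did not overlap, against 24.7% of genes. The authors' cluster 4, where 564 cells were MPP-3, held 77 of 693 and 379 of 3959 cells of AML replicates 1 and 3. Of PBS replicates 1, 2 and 3 it held 197 of 6838, 23 of 934 and 150 of 4398 cells. The part of this mix in the MPP-3 values was not tested. In HSC the groups overlapped for *Hspe1* and the difference was -0.12 ± 0.30, with 23 HSC-class cells in AML replicate 1.

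An interaction term tested the difference of the AML effect between classes itself. It called 0 of 8 members (0.872% of 12734 genes were called), with 4 of 8 at an unadjusted p under 0.05 against 10.9% of genes, and no other tool was run on it. *Hsp90ab1* came nearest: the AML effect was 0.52 higher in MPP-3 than in HSC on the log2 scale, 0.42 higher in MPP-4 and 0.32 higher in MPP-2 (edgeR adjusted p = 0.0776). Over the libraries left out its adjusted p ran from 0.0247 (without AML replicate 3) to 0.383 (without PBS replicate 1). The former leaves AML replicate 1 as the lone AML library, which is assumed to vary like the PBS libraries. For *Hspe1* the effect exceeded that in HSC by 0.65, 0.28 and 0.38 in the same order (edgeR adjusted p = 0.0806, and 0.0511 without PBS replicate 2 to 0.618 without PBS replicate 1).

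**Figure D2:**
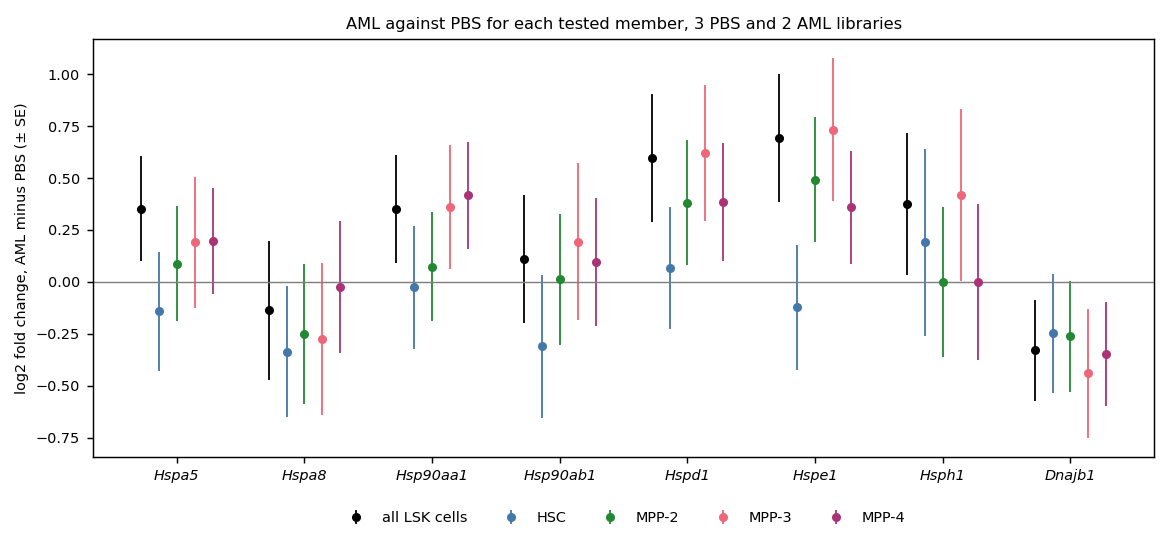
Log2 fold change, AML minus PBS, with its standard error, for each of 8 tested members in all LSK cells and in each class (3 PBS and 2 AML libraries). *Hspe1* runs from -0.12 in HSC to 0.73 in MPP-3, *Dnajb1* lies below 0 in every set, and no point passed the adjusted threshold.

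Within cell cycle phases, as called by the authors, edgeR again called 0 of 8 members in G1 (0.139% of genes), S (0.264%) and G2M (0.236%), with 1 at an unadjusted p under 0.05, *Hspe1* in G2M, where 10.3% of genes passed (5.32% in G1 and 7.88% in S). No other tool was run on these. The AML effect did not pass as differing between phases for any of 10 members tested (0.461% of genes called, 0 members at an unadjusted p under 0.05 against 7.72% of genes).

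Cells of different cell cycle phases were then compared with each other. Of 8 members 7 differed between phases by an F test, against 72.9% of genes. Chaperone transcripts were highest in S phase: 7 of 8 members were higher in S than in G1, where 30% of genes were called higher and 61.1% in either direction. Each of the 7 was higher in S in 5 of 5 libraries, and *Dnajb1* in 4 of 5. The median log2 difference of the 8 members was 0.68, against -0.042 over all 12236 genes tested. The fit had a term for each library, so cells of 1 library were compared with each other. All 7 were called under 13 of 13 alternatives.

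The mitochondrial pair had the highest differences of the 8 members. *Hspd1* stood at 383, 227 and 246 CPM in G1 cells of PBS replicates 1, 2 and 3, and at 827, 493 and 540 CPM in their S cells. In AML replicates 1 and 3 it stood at 559 and 306 CPM in G1 and at 972 and 744 CPM in S. Within every library S was the higher phase, and the log2 difference was 1.12 ± 0.05 (edgeR adjusted p = 9.14e-17). *Hspe1*, its neighbour on the other strand, rose as well. It went from 350, 353 and 440 CPM to 728, 750 and 1036 CPM in PBS, and from 775 and 394 CPM to 1421 and 964 CPM in AML (1.13 ± 0.05, adjusted p = 5.64e-17).

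*Hsp90aa1* rose from 134 to 220 CPM in G1 to 280 to 358 CPM in S over the 5 libraries, without overlap (log2 difference 1.03 ± 0.05, edgeR adjusted p = 4.78e-16). *Hsp90ab1* changed less, by 0.48 ± 0.04, and its G1 range over libraries (1905 to 2918 CPM) overlapped its S range (2584 to 3962 CPM). The cytosolic HSP70 *Hspa8* was higher in S by 0.63 ± 0.04, its nucleotide exchange partner *Hsph1* by 0.72 ± 0.12 and *Hspa5* by 0.49 ± 0.05. Plasma cell markers, 8 genes in all, summed to 18765 to 51940 CPM in G1 and to 88.8 to 1733 CPM in S, and without clusters 6, 7 and 8 the *Hspa5* difference was 0.60. *Dnajb1* did not pass, at 54.1 CPM in G1, 58.4 in S and 57.5 in G2M (means over 5 libraries, SD 12.2, 13.9 and 11.6).

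G2M cells lay between. Against G1, 5 of 8 members were higher, where 28.4% of genes were called higher: *Hsp90aa1* by 0.68, *Hspe1* by 0.49, *Hspa8* by 0.41, *Hspd1* by 0.39 and *Hsp90ab1* by 0.38 on the log2 scale, each in 5 of 5 libraries. By library size alone, where the median of all genes was -0.23, these values were 0.50, 0.31, 0.24, 0.22 and 0.21 in that order, and with a term for each library and class *Hspe1* stood at 0.20 and *Hspd1* at 0.23. All 5 were called in both. *Hspa5* did not pass between G2M and G1, at 89.3 CPM in G2M and 91.4 CPM in G1, a log2 difference of -0.0028 ± 0.054. Scaled by library size alone it was lower in G2M by fit, at -0.18 (adjusted p = 0.00344). Against S, the same 7 members that rose were lower in G2M (19.6% of genes were called lower). The drop was largest for *Hspd1* (-0.73) among the 8, and smallest among those called for *Hsp90ab1* (-0.10, adjusted p = 0.0292).

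**Figure D3:**
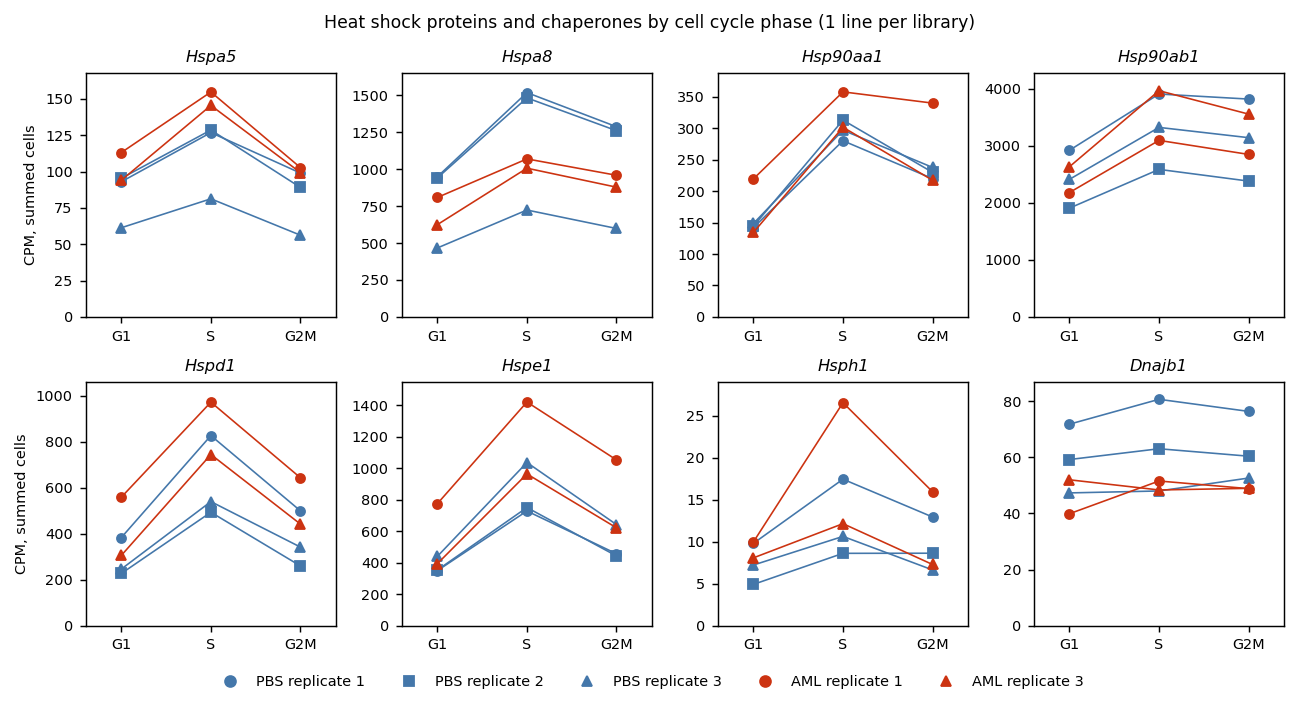
CPM of 8 members (vertical axes from 0) in summed G1, S and G2M cells, with 1 line per library. Lines peak at S for *Hspa5*, *Hspa8*, *Hsp90aa1*, *Hsp90ab1*, *Hspd1* and *Hspe1* in all 5 libraries and stay near flat for *Dnajb1*.

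Related lists are described by counts, beside 30% of all genes called higher and 31.1% called lower in S. Between S and G1, 12 of 14 TRiC and prefoldin subunits were higher and 1 lower, with *Pfdn6* at 0.93, *Tcp1* at 0.78 and *Cct8* at 0.65 on the log2 scale. These proteins fold actin and tubulin. Of 17 HSP90 co-chaperones 12 were higher and 0 lower, including *Nudc* (1.05), the ubiquitin ligase *Stub1* (0.90) and *Pih1d1* (0.69). Among 13 HSP70 relatives and exchange factors 7 were higher and 3 lower, with ribosome-associated *Hspa14* at 1.13, *Bag1* at 0.65 and *Hspbp1* at 0.46.

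The other lists split. Of 23 J-domain proteins 9 were higher and 4 lower, led by *Dnajc9* (1.74), a histone co-chaperone, with *Dnajc19* at 0.66 and *Dnajc8* at 0.54. Of 20 endoplasmic reticulum genes 11 were higher, such as *Sdf2l1* (1.62) and *Calr* (0.82), and 5 lower, including the transcription factor *Xbp1* (-0.87). Of 11 mitochondrial genes 7 were higher and 1 lower, with *Grpel1* at 0.61, *Clpp* at 0.58 and *Hspa9* at 0.32. Of 3 tested small heat shock proteins 0 were called, and of 3 genes of the heat shock factor list 1 was higher. *Hsbp1*, which binds HSF1, was not the one: its difference was 0.067 (adjusted p = 0.165). The immediate early list went the other way, with 15 of 16 genes lower in S, including *Junb* (-1.07), *Jund* (-0.79) and *Zfp36* (-1.08). Its summed level was 1587 to 4275 CPM in G1 and 803 to 2224 CPM in S.

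Classes differed as well. Of 8 members 6 differed between classes by an F test with a term per library, against 67.7% of 11705 genes, so that the share is near the background. The direction was common to them: HSC was lowest. MPP-3 was higher than HSC for 6 members (25.5% of genes were called higher), MPP-2 for 5 (28.3%) and MPP-4 for 5 (15.9%), and 0 members were lower. MPP-4 was lower than MPP-3 for 5 members (19.3% of genes were called lower) and lower than MPP-2 for 3 (26.8%).

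*Hspe1* spanned the widest range of the 8 members between HSC and MPP-3, followed by *Hspa5* and *Hspd1*. In HSC, *Hspe1* stood at 376, 325, 419, 343 and 337 CPM in PBS replicates 1, 2 and 3 and AML replicates 1 and 3. In MPP-3 it stood at 592, 600, 854, 1383 and 889 CPM in the same order, above HSC in 5 of 5 libraries. These levels are scaled over all classes together: *Hspe1* in PBS replicate 1 stood at 434 CPM in HSC and 502 CPM in MPP-3 when each class was scaled by itself for the AML comparison, against 376 and 592 CPM here. The log2 difference was 1.09 ± 0.10 (edgeR adjusted p = 9.34e-11), and MPP-2 was higher than HSC by 1.01 ± 0.09. *Hspd1* was higher by 0.97 ± 0.08 in MPP-3 and by 0.77 ± 0.08 in MPP-2. MPP-4 lay between, at 0.40 for *Hspe1* and 0.38 for *Hspd1*, and below MPP-3 for both in 5 of 5 libraries. *Hsp90aa1* was higher than HSC in all 3 progenitor classes, with 0.76 for MPP-2, 0.68 for MPP-3 and 0.28 for MPP-4, the last of which did not pass in G1 cells alone (0.14, adjusted p = 0.182). For these 3 genes MPP-2 and MPP-3 did not differ by the test (adjusted p = 0.0527 for *Hspd1*, 0.611 for *Hspe1* and 0.519 for *Hsp90aa1*).

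*Hspa8* stood at 712 ± 220 CPM in HSC and *Hsp90ab1* at 2187 ± 527 CPM (SD, n = 5 libraries), and both were higher in the 3 MPP classes, by 0.42 to 0.56 and by 0.38 to 0.53 on the log2 scale. The MPP classes did not differ from each other for either gene by the test. *Hsph1* (adjusted p = 0.0747) and *Dnajb1* (adjusted p = 0.208) did not pass across classes, though *Hsph1* was lower in MPP-4 than in MPP-3 (-0.38, adjusted p = 0.0401). Scaled by library size alone, the median of all genes was itself -0.29 in MPP-2 and -0.36 in MPP-3 relative to HSC. On that scale *Hspa8* (0.13) and *Hsp90ab1* (0.12) did not pass in MPP-3, *Hsp90aa1* (0.21) did not pass in MPP-4, and *Dnajb1* was lower in MPP-2 (-0.21) and MPP-3 (-0.47). Relative to the shift of all genes, *Hspa8* stood at 0.49 in MPP-3 and *Dnajb1* at 0.079 in MPP-2 and -0.11 in MPP-3.

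*Hspa5* stood at 162, 202, 114, 184 and 178 CPM in MPP-3 (PBS replicates 1, 2 and 3, then AML replicates 1 and 3), and at 94.7, 98.0, 60.5, 80.0 and 74.6 CPM in HSC. MPP-3 was above every other class in 5 of 5 libraries, by 0.99 ± 0.08 over HSC (edgeR adjusted p = 2.40e-11), 0.86 over MPP-2 and 0.86 over MPP-4. MPP-2 and MPP-4 did not differ from HSC by the test, at 0.13 ± 0.08 each. It was the only member called between MPP-3 and MPP-2, where 18.2% of genes were. The summed level of 8 plasma cell markers was 26001 to 206422 CPM in MPP-3 and 48.9 to 237 CPM in the other classes, and 172 of the 177 cells of cluster 6, rich in immunoglobulin transcripts, carried the MPP-3 label. Without clusters 6, 7 and 8 the difference of *Hspa5* between MPP-3 and HSC was 0.84.

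Of the endoplasmic reticulum genes, 17 of 19 were higher in MPP-3 than in HSC and 1 lower, with *Sdf2l1*, a cofactor of BiP, at 2.48, *Herpud1* at 1.76 and the secreted factor *Manf* at 1.43 on the log2 scale. The median of the list was 1.27, against -0.020 over all genes. Plasma cell markers were high in MPP-3, as given above. Without clusters 6, 7 and 8, 16 of 19 were higher (26.4% of genes were), the median was 1.01, and *Sdf2l1* stood at 2.15, *Herpud1* at 0.93 and *Manf* at 1.16. There 5 of 7 monocyte and macrophage markers were higher and 1 lower (median 4.31). Mast cell and basophil (3 of 3, 6.29), B cell (3 of 3, 0.95) and T and NK cell markers (2 of 2, 1.48) were higher. Of 5 plasma cell markers 1 was higher, and of 4 erythroid markers 0 were higher and 1 lower. Their part in the chaperone values was not tested. TRiC and prefoldin had 13 of 14 higher in MPP-2 and 11 in MPP-3 (*Pfdn6* 0.98 and 0.76, *Tcp1* 0.79 and 0.78, *Cct5* 0.54 and 0.52). HSP90 co-chaperones had 12 and 10 of 17 higher (*Pih1d1* 0.95 and 0.34, *Nudc* 0.86 and 0.76, *Ptges3* 0.66 and 0.63).

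Of all genes, 28.3% were called higher and 27.8% lower in MPP-2 than in HSC, and 25.5% and 24.2% in MPP-3. J-domain proteins split, with 10 of 22 higher and 4 lower in MPP-3, where *Dnajb11*, another BiP partner, stood at 1.22, *Dnajc9* at 1.05 and *Dnajc19* at 0.56. HSP70 relatives had 2 of 13 higher and 3 lower in MPP-3: *Hspa14* was at 0.68 and *Bag1* at 0.47, and the HSP110 gene *Hspa4* was at -0.39. Mitochondrial genes had 5 of 11 higher in MPP-3 and 1 lower, with *Grpel1* at 0.75, *Clpp* at 0.34 and *Hscb* at -0.34. Of 3 small heat shock proteins 1 was lower in MPP-3, and of 3 heat shock factor genes 0 were called there, *Hsbp1* being at 0.044. Immediate early genes were lower than in HSC for 14 of 16 in MPP-2 (*Junb* -1.25, *Zfp36* -1.14, *Ier2* -0.98) and for 9 of 16 in MPP-3, with 0 higher in either.

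**Figure D4:**
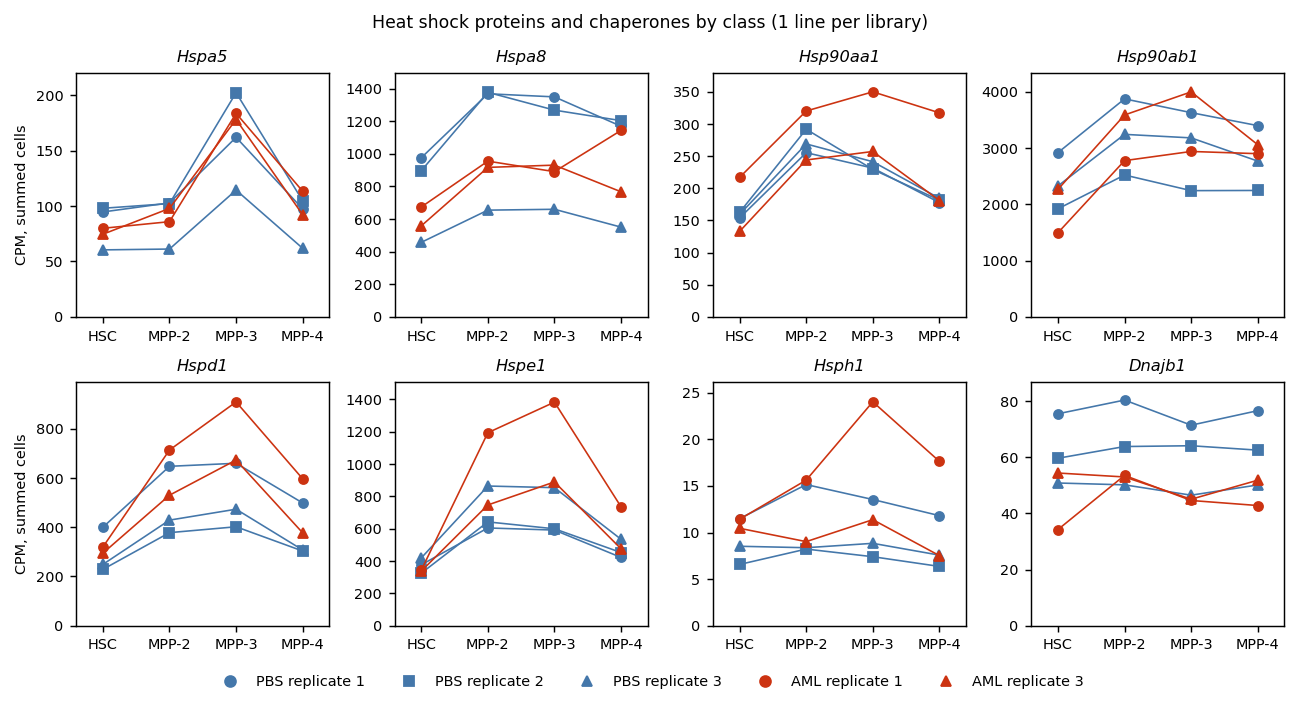
CPM of 8 members (vertical axes from 0) in the summed cells of each class, with 1 line per library. HSC is the lowest class in every library for *Hspa8*, *Hsp90aa1*, *Hsp90ab1*, *Hspd1*, *Hspe1* and *Hspa5*, and *Hspa5* peaks at MPP-3 in all 5.

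Class and phase were entangled. Of HSC cells 84.9% were called G1, of MPP-4 cells 70.9%, of MPP-3 cells 46.2% and of MPP-2 cells 11.5%. In G1 cells alone, MPP-2 was higher than HSC for 3 members in place of 5, where the share of genes called in either direction was 9.92% in place of 56.2%. MPP-3 was higher for 5 members in place of 6 (25.7% of genes in place of 49.6%) and MPP-4 for 4 in place of 5 (24.8% in place of 31.2%). *Hspa8* (0.19, adjusted p = 0.250) and *Hsp90ab1* (0.090, adjusted p = 0.618) no longer passed between MPP-2 and HSC, and *Hspe1* fell to 0.70, *Hsp90aa1* to 0.43 and *Hspd1* to 0.37. Between MPP-3 and HSC in G1 cells *Hsp90ab1* did not pass (0.17, adjusted p = 0.133), *Hspe1* fell to 0.48 and *Hspd1* to 0.43, and *Hspa5* stood at 1.08. Of the 177 cells of cluster 6, 162 were called G1. In G1 cells without clusters 6, 7 and 8, an alternative chosen after seeing the data, *Hspa5* fell to 0.56 in MPP-3 over HSC, *Hspe1* stood at 0.62, *Hspd1* at 0.58 and *Hsp90ab1* at 0.36, and 6 members were higher, where 23.6% of genes were called in either direction. The differences between S and G1 held for the same 7 members when a term for each library and class was used, at 0.40 for *Hspa5*, 0.86 for *Hspe1* and 0.95 for *Hspd1*.

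Across the authors' clusters 0 to 8, which were built from these transcripts and therefore give no test, *Hspa5* reached 438 to 517 CPM over 3 libraries in cluster 6 and had medians of 46.2 to 171 CPM in the other clusters. Clusters 6 and 7 had enough cells only in PBS replicates 1 and 3 and AML replicate 3, so clusters were ranked within those libraries. Cluster 6 was the lowest for *Hspd1* (median 165 CPM) and *Hsp90ab1* (median 1489 CPM) in each of the 3. It was the highest for *Dnajb1* in both PBS libraries but not in AML replicate 3. Cluster 7 (102 cells) was the highest for *Hsp90aa1* in each of the 3 (median 368 CPM). For *Hspd1* and *Hspe1* it was the highest in both PBS libraries but not in AML replicate 3, and its *Hspe1* values, 656 to 1578 CPM, overlapped clusters 1, 2, 3 and 4. Its *Hsph1* values rest on 8, 6 and 4 UMIs. Cluster 4 was second to cluster 6 for *Hspa5* in each of the 3 (median over 5 libraries 171 CPM).

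**Figure D5:**
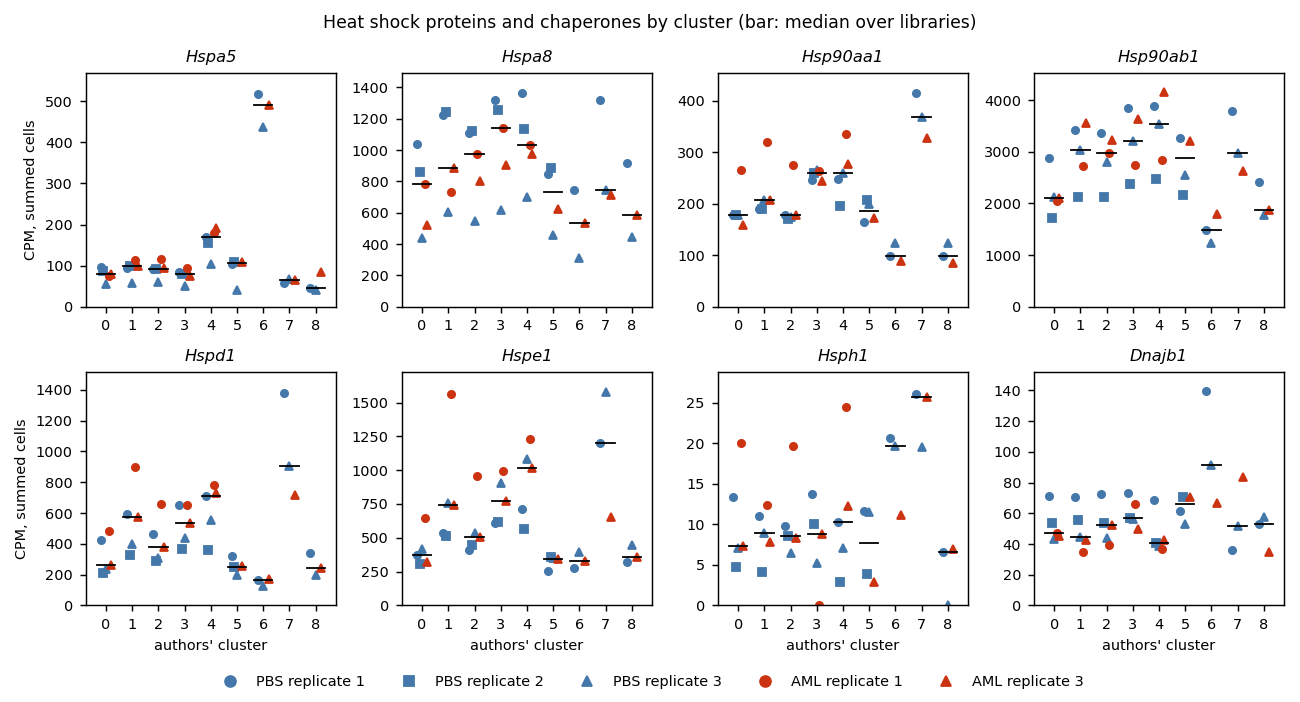
CPM of 8 members (vertical axes from 0) by cluster, with 1 point for each library that had at least 20 cells there and a bar at the median over libraries. Cluster 6 stands alone for *Hspa5* at 438 to 517 CPM, and cluster 7 is the highest for *Hsp90aa1* in its 3 libraries.

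The genes most like each member were found by Pearson's r of log2 CPM over 20 sums of library and class, which share libraries and depth and are given as a description. *Hspa5* was most like *Edem1* (r = 0.877) and *Pdia3* (0.860), both of the endoplasmic reticulum, then *Igfbp4* (0.855). *Hspe1* was most like the cytochrome c gene *Cycs* (0.977), *Mif* (0.973) and *Rpl23a* (0.971), and *Hspd1* like *Set* (0.953), *Kmt5a* (0.952) and *Psmd11* (0.941). The head-to-head pair had r = 0.799 with each other, and *Hspe1* had a higher r with *Hsp90aa1* (0.876). *Hsph1* was most like *St13* (0.893), an HSP70 cofactor, *Safb* (0.889) and *Trnt1* (0.871). *Hsp90aa1* went with *Hnrnpa3* (0.947), *Sgo1* (0.938) and *Nap1l1* (0.935), *Hsp90ab1* with *Zfp91* (0.943), *Gspt1* (0.925) and *Mpp6* (0.918), *Hspa8* with *Hnrnpf* (0.945), *Pigt* (0.922) and *Pkm* (0.890), and *Dnajb1* with *Frat2* (0.882), *Gyg* (0.855) and *Fnta* (0.854).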

How the data were processed

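Libraries were sequenced on the 10x platform. The submitters' processing notes name Cell Ranger 7.0.1, R 4.2.2, Seurat 4.3.0 and GRCm38. The deposited matrices hold raw UMI counts per gene and barcode, unfiltered here. The authors deposited a cell table with the class, cluster and phase of each cell, the percent of mitochondrial and ribosomal counts, and module scores, of which 11 columns of values were not used. How doublets were treated is not stated in those sources.

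UMIs of the table's cells were summed per library, and per library and class, phase or cluster (at least 20 cells). The library was the replicate. edgeR 4.0.16 (trimmed-mean scaling, filterByExpr, quasi-likelihood F test) was fitted to all genes in R 4.3.3, with Benjamini-Hochberg adjustment at 0.05. Class and phase fits had a term per library, and interactions tested whether AML effects differed. DESeq2 1.42.0 and limma 3.58.1 were alternatives. The code was tested on simulated data. For AML against PBS it called 45 of 99 genes given a 2-fold change and 91 of 99 given a 4-fold change. It also called 19 unchanged genes. A count of 0 in that comparison therefore does not show that changes of 2-fold or less are absent. Intervals and floors cover counting error only.

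Members and gene lists were chosen with earlier results of these data known. Members were named in full, and for each list up to 3 tested genes with the smallest p and a mean log2 CPM of at least 5, of which the AML comparison is given for the genes described. AML replicate 2 has no cells in the table and entered no main comparison. It entered the sums of barcodes outside the table given below and the alternatives on all barcodes (at least 1000 genes and at most 10% mitochondrial counts). Of its 17055 barcodes 106 passed that filter, against 1155 to 8609 in the PBS libraries. Other alternatives were scaling, low-count filter, replicate block, each library left out, single phases (also without clusters 6, 7 and 8), equal class mix, clusters 6, 7 and 8 or the top 5% of cells by UMIs left out, thinning to 2000 UMIs and shared barcodes left out.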

Additional observations from a re-analysis of the deposited data

Results flagged for a closer look

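Of the barcodes outside the authors' cell table, which the main comparisons do not use, 3 sums had a 95% exact Poisson interval above those of all 3 PBS libraries. *Hsp90aa1* stood at 402 CPM in AML replicate 2, against 230, 254 and 205 CPM in those of PBS replicates 1, 2 and 3. *Hspe1* stood at 1106 CPM in AML replicate 1 (interval 1084 to 1129) and at 758 CPM in AML replicate 2 (738 to 778), against 605, 596 and 698 CPM in PBS. AML replicate 3 was within the PBS values, at 243 CPM for *Hsp90aa1* and 663 CPM for *Hspe1*. In the other direction, *Hspa8* in AML replicate 1 (530 CPM, interval 514 to 546) and *Hsp90ab1* in AML replicate 2 (2122 CPM, 2088 to 2156) lay below all 3 PBS intervals, whose lowest bounds were 584 and 2237 CPM. Counting intervals do not measure the spread between libraries. Some of these barcodes entered the alternatives on all barcodes. The sets are unlike. That of AML replicate 2 is its whole library, 17055 barcodes with a median of 320 UMIs, and that of AML replicate 1 is 8088 barcodes with a median of 944, whereas those of PBS are the 322 to 2763 barcodes left after the cells were taken, with medians of 3194 to 8396.5 UMIs. Plasma cell markers summed to 2874 and 5561 CPM in AML replicates 1 and 2, 677 CPM in AML replicate 3 and 112 to 831 CPM in PBS. MPP-4 markers summed to 1389, 1946 and 1054 CPM in AML replicates 1, 2 and 3, and to 574 to 810 CPM in PBS. The part of depth and of these markers in the sums was not tested.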

How the results depend on the processing

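Of 169 recomputed counts of called members, 166 stayed within 1.5 times the reported count. The exceptions were MPP-2 against HSC in G1 cells, at 3 members with or without clusters 6, 7 and 8, and the AML effect by class, at 0 to 1 over the libraries left out. Of 1159 recomputed values of members tested in the reported fit, 1085 kept direction and side of the threshold and 59 turned direction. Of the rest 10 lost the call and 5 gained it, and the cause was not tested. The 59 concern differences not called in the reported fit, and 1 of them was called after turning, *Dnajb1* in MPP-2 by library size (adjusted p = 0.0231). The counts of all genes called between AML and PBS, 23 in the reported fit, were 83 with DESeq2, 392 without a low-count filter and 2 to 419 over the libraries left out.

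The replicate block, on numbers shared by PBS and AML (1 and 3), changed no member call and gave 91 called genes. The log2 fold change became 0.094 for *Hspa8* and -0.044 for *Hsp90ab1* in all cells, and -0.14 in MPP-2 and -0.043 in MPP-4 for *Hsp90ab1*. Deviations of same-numbered libraries correlated at -0.057 and -0.055, so the numbers were not taken as pairs.

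For AML against PBS, *Hsp90ab1* turned to -0.027 in G1 cells, -0.00095 with the filter on all barcodes and -0.033 with barcodes kept where they hold most UMIs, and in MPP-2 to -0.0016 without a filter and -0.17 in G1 cells. *Hsph1* was -0.0033 in G2M cells, and *Hspe1* in HSC was 0.10 by library size. Over libraries left out, all-cell values spanned -0.39 to 0.064 (*Hspa8*), -0.030 to 0.31 (*Hsp90ab1*) and -0.044 to 0.98 (*Hsph1*). Those of *Hspd1* in HSC spanned -0.087 to 0.37, and those of *Hsp90ab1* -0.18 to 0.20 (MPP-2), -0.014 to 0.39 (MPP-3) and -0.050 to 0.28 (MPP-4).

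Against HSC by library size, *Hspa5* (-0.13), *Hsph1* (-0.11) and *Dnajb1* (-0.21) turned in MPP-2 and *Hsph1* (-0.067) in MPP-3, and *Dnajb1* passed across classes (adjusted p = 0.000101) and, without clusters 6, 7 and 8, at 0.0353. In G1 cells *Dnajb1* was -0.17 (MPP-2), 0.077 (MPP-3) and 0.0042 (MPP-4), and *Hsph1* -0.15 in MPP-3, and without clusters 6, 7 and 8 these were -0.18, -0.089, 0.0054 and -0.22. *Dnajb1* in MPP-4 was 0.054 without a filter, 0.026 in PBS libraries, 0.010 without those clusters, 0.0076 thinned, 0.020 without shared barcodes and 0.0061 to 0.024 over libraries left out, and thinned in MPP-2 -0.024. *Hsph1* in MPP-2 spanned -0.047 to 0.25 over libraries left out.

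Between phases, *Dnajb1* was -0.10 (library size) and -0.090 (thinned) in S and -0.13 and -0.045 in G2M. *Hspa5* in G2M against G1 was 0.012 without a filter, 0.022 in PBS libraries, 0.10 without clusters 6, 7 and 8, 0.0063 thinned, 0.022 without shared barcodes, 0.0077 with limma-voom, 0.062 with a term per library and class, and -0.051 to 0.027 over libraries left out. Depth limits *Hspa1a*, *Hspa1b* and *Hsph1* most, since AML replicate 1 holds 1945659 UMIs, where 3 counts are 1.54 CPM.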
